A study of Drosophila melanogaster with 62 samples.

Results

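The comparison described here set female fat bodies from larvae grown on 0.3 M sucrose, the lowest of the 3 raised sucrose levels in the study, against those from larvae on the 0.15 M control diet. The 6 samples, 3 per diet, were chosen by their labels (sex, driver, control stock and diet) from the 62 samples of a Drosophila melanogaster RNA-seq series on dietary sugar and fat body transcription factors. All 6 came from wandering third-instar females of 1 genotype, the w1118 stock of the VDRC crossed to a stock carrying UAS-Dcr2 on the X chromosome and the fat body driver r4-GAL4, with no RNAi transgene. UAS-Dcr2, which raises the efficiency of RNAi, was therefore present on both diets. The tissue was "floated", that is freed by shearing the larvae and collected by centrifugation rather than dissected, and RNA depleted of ribosomal RNA was sequenced. The labels do not state how many larvae entered a library or whether libraries came from separate cultures, so every p-value reflects only variation among these 6 and the related libraries, which may be technical.

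The larval fat body combines roles that mammals divide between liver and adipose tissue. It takes up dietary sugar, breaks it down through glycolysis, turns the carbon into triglyceride, glycogen and the circulating sugar trehalose, and secretes haemolymph proteins and hormones that report the nutrient state to the brain. Sucrose-rich food is a widely used way to overfeed larvae, and sugar-sensing factors such as Mondo and sugarbabe are known to raise glycolytic and lipogenic genes in this tissue.

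Values are FPKM that had been scaled so that 2117 genes reached 1 in each library, and are called scaled FPKM. They are relative levels, per transcript length, and 1 unit in a transcript of 1 kb stood for an estimated 3.55 to 5.62 fragments in the 0.3 M libraries and 5.62 to 7.08 in the 0.15 M libraries. The summed values were 43761, 55251 and 59269 at 0.3 M, against 38664, 41628 and 40519 at 0.15 M. Library 1 at 0.3 M was the shallowest of the 6 and lay closest to the control diet, with rank correlations over the genes tested of 0.85 to 0.87 with the 0.15 M libraries and 0.85 to 0.87 with the other libraries at 0.3 M. Among the 0.15 M libraries, library 2 stood somewhat apart, with rank correlations of 0.87 and 0.86 with libraries 1 and 3, which correlated at 0.90 with each other. As a sum over 8 genes, defining fat body markers were abundant in all 6 libraries, at 6854 to 9102 at 0.3 M and 5959 to 7985 at 0.15 M. Not every member was abundant, since Hnf4 stood at 0.244 to 0.763 in these 6 libraries.

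Of 2177 genes tested, 168 (7.72%) differed between the diets at an adjusted p under 0.05. Of these, 138 (6.34%) were higher at 0.3 M and 30 (1.38%) were lower. A log2 change beyond 1 in size was reached by 35 of the higher and 19 of the lower genes. The values of the 3 libraries of each diet did not overlap in 137 of the 138 higher genes and 25 of the 30 lower ones, beside 23.8% and 6.48% of all genes tested that lay wholly higher or wholly lower at 0.3 M. The median change of all genes tested was 0.15 on the log2 scale, and rescaling each library by its median ratio took it to 0.005. After that rescaling 71 genes were called, 35 higher and 36 lower, with 62 of the 168 calls kept. Over all genes tested 66.7% of changes were positive and 33.2% negative. These figures moved with the level of the genes tested, since the median was 0.28 and 75% were positive with the minimum mean at 3 (987 genes), and the median was -0.03 and 36.9% were positive with no filter. The share called moved as well. With the minimum mean at 3, 142 of the 987 genes were called higher, a larger share than the 6.34% set beside the lists below.

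The number of calls rested on single libraries. Without library 1 at 0.3 M, 422 genes were called, while without library 2 or 3 at 0.3 M there were 35 and 25. Leaving out library 1 or 3 at 0.15 M left 47 and 30 calls, and 129 without library 2. All 168 genes kept their direction in every leave-one-out fit. For the 137 higher and 25 lower genes without overlap between the diets this was fixed in advance. Of the 168, 23 also kept their call in all 6 of these fits, among them CG3348, regucalcin, CG31775, CG42586, CG33307, CG30503, CG5773 and Act57B on the higher side and Act42A, CG31789, CG8664, Cyp6d5, Jon25Bii and CG4484 on the lower side. A fit on these 6 libraries alone, without the 0.7 M and 1.0 M libraries that shared the estimate of the spread, called 6 genes. Of these, CG31775 and CG42586 are described below. The other 4, CG4293, CG14057, Ufd1-like and CG7712, lay under the level set for description. CG14057 and Ufd1-like had values at or near 0 on 1 of the diets, which are given at the end.

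**Figure D1:**
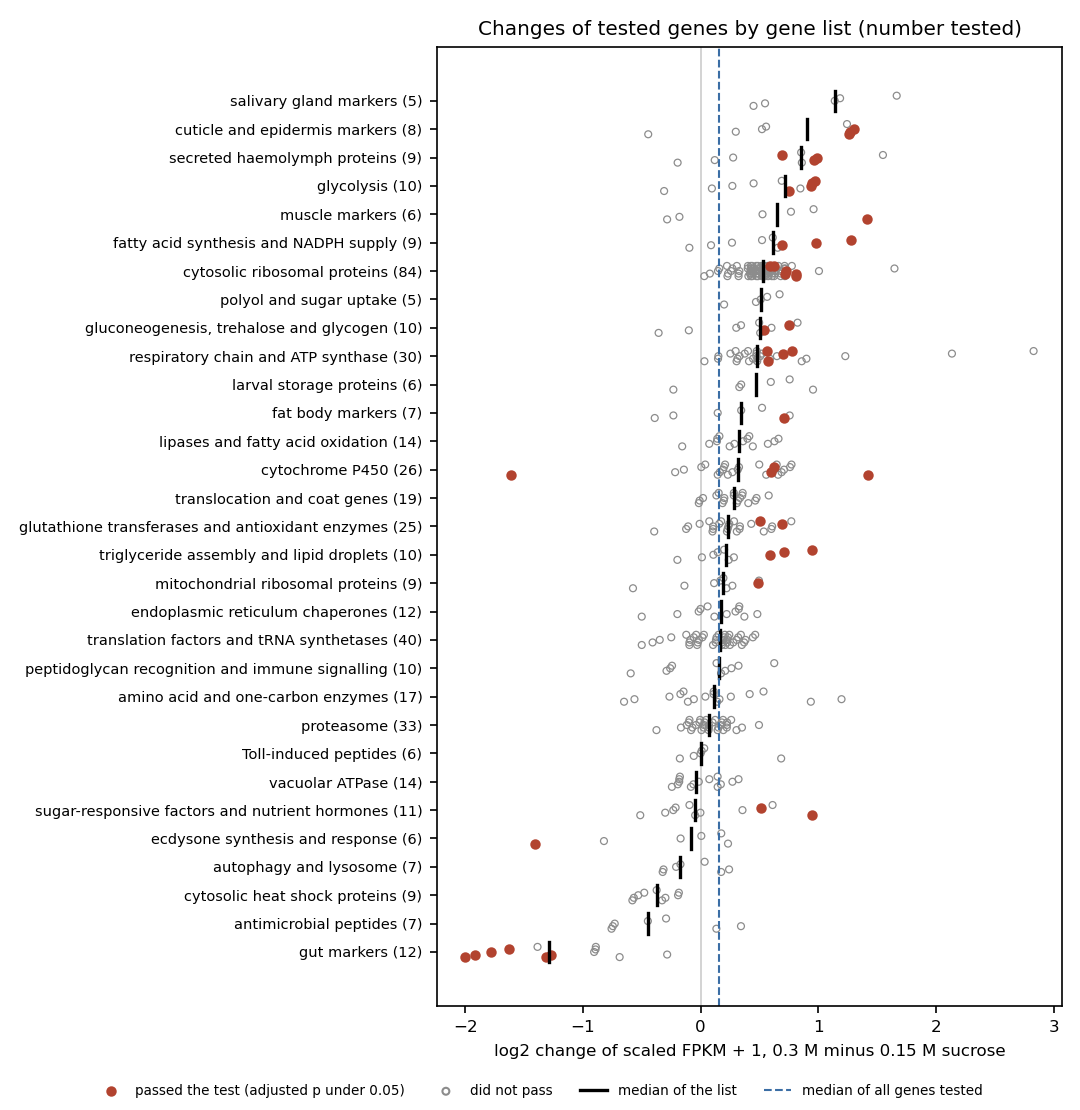
Log2 change of scaled FPKM + 1 (0.3 M minus 0.15 M) of each tested gene, by gene list with the number of genes tested. Filled points passed the test, open points did not, black bars are list medians and the dashed line is the median of all genes tested, 0.15; the gut list lies furthest below that line, and all 84 ribosomal protein genes lie above 0.

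Genes that turn sugar carbon into fatty acids were higher at 0.3 M in 3 of 9 tested cases (33.3%, beside 6.34% of all genes). The list median was 0.61. desat1, the stearoyl-CoA desaturase, stood at 12.6, 11.03 and 16.1 scaled FPKM in the 0.3 M libraries, against 3.18, 8.27 and 4.06 in the 0.15 M libraries. The groups did not overlap, and library 2 was the highest of the control diet. Its log2 change was 1.28 ± 0.29 (SE, adjusted p = 0.0332). Pgd, the 6-phosphogluconate dehydrogenase that supplies NADPH, stood at 3.13, 4.53 and 6.77 at 0.3 M, against 1.54, 2.08 and 1.96 at 0.15 M, again without overlap, a change of 0.98 ± 0.25 (SE, adjusted p = 0.0436). CG6782 (sea, the mitochondrial citrate carrier) was nearly level within each diet, with 12.9, 13.2 and 13.7 at 0.3 M, against 9.12, 7.71 and 6.897 at 0.15 M, and rose by 0.69 ± 0.14 (SE, adjusted p = 0.0258). Acetyl-CoA synthetase AcCoAS also lay wholly above the control libraries, at 6.05, 7.12 and 11.9 at 0.3 M, against 3.55, 5.72 and 5.19 at 0.15 M, but did not pass the test (0.65 ± 0.23, adjusted p = 0.1). The fatty acid synthase CG3523 (FASN1), the malic enzyme Men and the citrate lyase ATPCL overlapped between the diets, at changes of 0.52 ± 0.25, 0.61 ± 0.26 and 0.27 ± 0.19. HLH106, the SREBP factor, did not differ beyond its error (-0.095 ± 0.12, adjusted p = 0.63).

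Triglyceride assembly and lipid droplet genes included 3 higher genes among 10 tested (30%, beside 6.34% of all genes tested), with a median of 0.22. Gpdh, the glycerol-3-phosphate dehydrogenase that makes the glycerol backbone, stood at 3.15, 2.09 and 3.62 scaled FPKM in the 0.3 M libraries, against 0.747, 1.43 and 0.964 in the 0.15 M libraries. All 3 libraries at 0.3 M lay above all 3 controls, with a change of 0.94 ± 0.23 (SE, adjusted p = 0.0379). Lsd-1, the perilipin of the droplet surface, had 54.2, 71.8 and 77.1 at 0.3 M, against 41.8, 40.6 and 39.7 at 0.15 M and a change of 0.705 ± 0.16 (SE, adjusted p = 0.0353). The diacylglycerol acyltransferase mdy, close to the lower limit of the measurement, had 1.11, 1.02 and 1.597 at 0.3 M, against 0.551, 0.488 and 0.415 at 0.15 M and a change of 0.59 ± 0.14 (SE, adjusted p = 0.0356). The second perilipin, Lsd-2, overlapped between diets, with 10.6, 10.95 and 15.1 at 0.3 M, against 10.96, 21.7 and 11.3 at 0.15 M, and its change was -0.197 ± 0.24, adjusted p = 0.61. No gene of the 14 tested in the list of lipases and fatty acid oxidation passed the test, and the list's median was 0.32. The largest changes there were those of the carnitine carrier colt (0.66 ± 0.28, adjusted p = 0.15) and the dehydrogenase scu (0.63 ± 0.23, adjusted p = 0.11). The main triglyceride lipase bmm was not among those that passed (-0.16 ± 0.25, adjusted p = 0.7).

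Glycolysis was the metabolic list with the most calls for its size. In it 4 of 10 tested genes were higher (40%, beside 6.34% of all genes tested), and the median was 0.72. Pgi, which makes fructose-6-phosphate, stood at 7.06, 6.66 and 11.8 scaled FPKM in the 0.3 M libraries, against 2.44, 5.13 and 3.95 in the 0.15 M libraries. The lowest 0.3 M library lay above the highest control, and library 3 at 0.3 M was the highest of all. Gapdh2 and Gapdh1, the glyceraldehyde-3-phosphate dehydrogenases, had 17.4, 16.4 and 22.8 at 0.3 M, against 8.799, 9.604 and 9.22 at 0.15 M and 41.1, 55.98 and 62.6 at 0.3 M, against 29.3, 31.1 and 32.03 at 0.15 M. Both were nearly constant over the control libraries and lay above them in every 0.3 M library. Triose phosphate isomerase Tpi had 7.401, 9.51 and 11.1 at 0.3 M, against 3.27, 5.45 and 4.51 at 0.15 M. The changes were 0.97 ± 0.24 (SE, adjusted p = 0.037) for Pgi, 0.95 ± 0.17 (SE, adjusted p = 0.0151) for Gapdh2, 0.94 ± 0.19 (SE, adjusted p = 0.0266) for Tpi and 0.75 ± 0.18 (SE, adjusted p = 0.0359) for Gapdh1. Enolase (Eno) lay wholly above the controls without passing the test (0.69 ± 0.21, adjusted p = 0.0698), while the hexokinase Hex-A, at the entry of the pathway, had the only negative change of the list (-0.31 ± 0.15, adjusted p = 0.2).

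Among 10 tested genes of gluconeogenesis, trehalose and glycogen 2 were higher (20%, beside 6.34% of all genes tested), and the median was 0.50. fbp, the fructose-1,6-bisphosphatase, stood at 9.27, 11.2 and 14.4 scaled FPKM in the 0.3 M libraries, against 6.16, 6.43 and 6.544 in the 0.15 M libraries. The 3 control values lay within a narrow band below all 0.3 M values, and the change was 0.75 ± 0.17 (SE, adjusted p = 0.0332). UGP, which makes the UDP-glucose used for glycogen and trehalose, had 3.04, 3.05 and 3.75 at 0.3 M, against 2.02, 2.28 and 1.55 at 0.15 M and a change of 0.54 ± 0.12 (SE, adjusted p = 0.0337). Trehalose synthase Tps1 and the glycogen branching enzyme CG33138 (AGBE) had changes of 0.497 ± 0.21, adjusted p = 0.16 and 0.82 ± 0.32, adjusted p = 0.12. Pepck, the committing enzyme of gluconeogenesis, overlapped between diets and did not pass (-0.36 ± 0.21, adjusted p = 0.28). In the polyol and sugar uptake list none of 5 tested genes passed, with a median of 0.51, and the sorbitol dehydrogenase Sodh-1 came nearest in size (0.67 ± 0.21, adjusted p = 0.0758).

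These metabolic calls moved with the settings. After median-ratio rescaling, 0 fatty acid genes, 0 triglyceride genes, 2 glycolytic genes and 1 gluconeogenic gene were called, while the list medians stayed positive at 0.43, 0.08, 0.51 and 0.32. Without library 3 at 0.3 M or library 3 at 0.15 M no gene of these 4 lists passed, and without library 1 at 0.3 M the counts were 4, 3, 4 and 4.

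**Figure D2:**
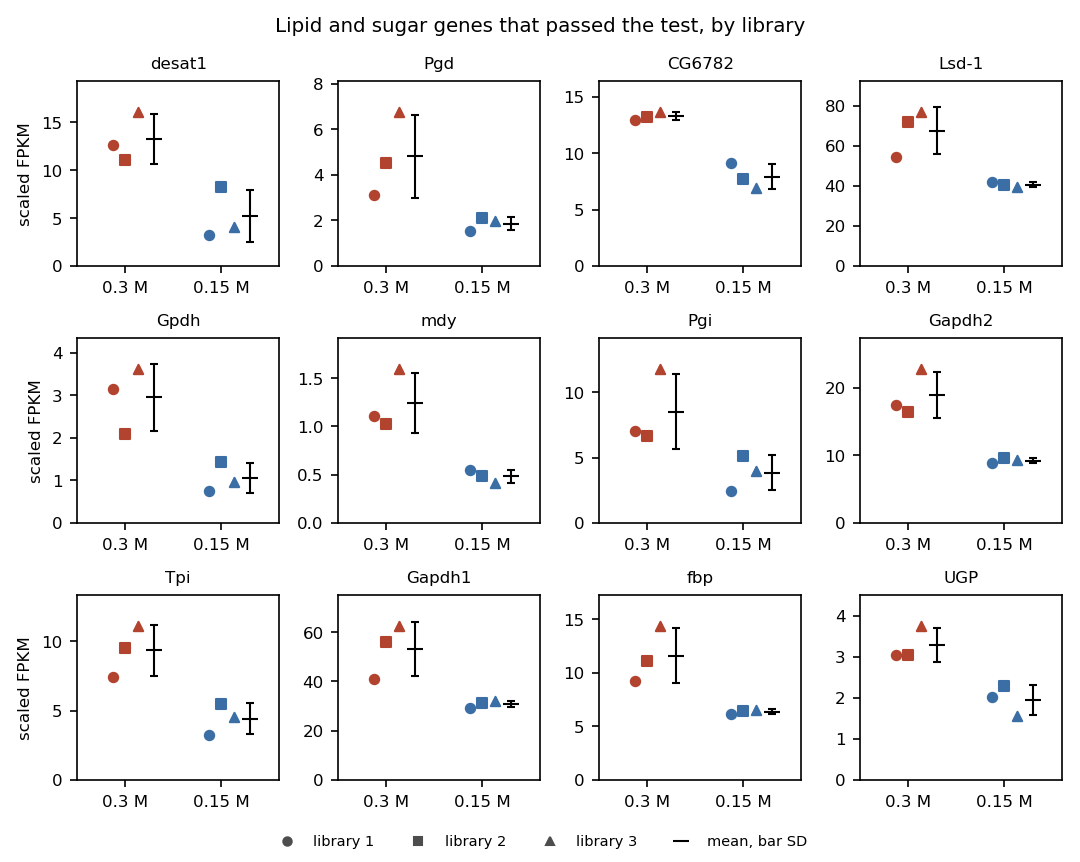
Scaled FPKM of 12 lipid and sugar genes in each library at 0.3 M (red) and 0.15 M (blue); symbols mark libraries 1 to 3 and black bars the mean and SD of 3 libraries. In every panel the lowest 0.3 M library lies above the highest 0.15 M library.

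Of 11 tested sugar-responsive factors and nutrient hormones, 2 were higher (18.2%, beside 6.34% of all genes tested) and the median was -0.05. CG14375, which encodes the peptide hormone CCHa2 that links the fat body to insulin-producing neurons, stood at 6.39, 6.83 and 7.84 scaled FPKM in the 0.3 M libraries, against 3.69, 3.03 and 2.79 in the 0.15 M libraries. The diets were well separated, and the change was 0.95 ± 0.18 (SE, adjusted p = 0.0192). The mean of CG14375 was 3.17 ± 0.466 at 0.15 M, 7.02 ± 0.739 at 0.3 M, 14.2 ± 1.701 at 0.7 M and 5.38 ± 1.47 at 1.0 M. GRHR, now called AkhR, the receptor for adipokinetic hormone, had 1.57, 1.88 and 2.27 at 0.3 M, against 1.12, 1.18 and 0.784 at 0.15 M and a change of 0.52 ± 0.13 (SE, adjusted p = 0.0407). The sugar sensor dmondo (Mondo) and its target sugarbabe did not change beyond their errors (-0.09 ± 0.27, adjusted p = 0.84 and -0.05 ± 0.22, adjusted p = 0.9), and both were highest in library 2 at 0.15 M. The insulin-like peptide Ilp6 and the activin-like ligand daw had changes of -0.51 ± 0.37, adjusted p = 0.37 and -0.23 ± 0.18, adjusted p = 0.41. For the insulin and TOR pathway 2 of 13 genes reached the level tested, the translation inhibitor Thor (-0.27 ± 0.299, adjusted p = 0.57) and the sestrin CG11299 (-0.41 ± 0.16, adjusted p = 0.12), and neither passed.

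Secreted haemolymph proteins contributed 3 higher genes among 9 tested (33.3%, beside 6.34% of all genes tested), with a median of 0.85. fon, a clotting protein, stood at 56.003, 71.4 and 95.4 scaled FPKM in the 0.3 M libraries, against 30.9, 52.2 and 29.1 in the 0.15 M libraries. Its lowest 0.3 M value lay just above the highest control, library 2, and the change was 0.99 ± 0.25 (SE, adjusted p = 0.0422). The odorant-binding protein gene Obp99a had 6.604, 7.86 and 7.44 at 0.3 M, against 3.74, 2.56 and 3.54 at 0.15 M, without overlap, and a change of 0.97 ± 0.21 (SE, adjusted p = 0.0317). Obp99b was among the most abundant transcripts of the tissue, at 4703, 7897 and 8061 at 0.3 M, against 4294, 3861 and 4312 at 0.15 M, with a change of 0.69 ± 0.19 (SE, adjusted p = 0.0471). No larval storage protein gene passed among 6 tested, whose median was 0.47. Lsp1gamma came nearest in size, at 995, 776 and 1148 at 0.3 M, against 344, 963 and 367 at 0.15 M, where library 2 of the control diet lay among the 0.3 M values; its change was 0.95 ± 0.38 (SE, adjusted p = 0.14). In Lsp1beta, too, that control library lay among the 0.3 M values, and the change was 0.76 ± 0.34 (SE, adjusted p = 0.17). After median-ratio rescaling, 1 haemolymph gene was called.

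All 30 tested genes of the respiratory chain and ATP synthase had positive changes, beside 66.7% positive among all genes tested. Their median was 0.48 and their range 0.03 to 2.83. The 2.83 was that of CoVa, whose values near 0 at 0.15 M can be a failed estimate, as given at the end. In this list 4 genes (13.3%, beside 6.34%) passed the test. At a minimum mean of 3, where 22 of the 30 were tested, 142 of 987 genes were called higher, a share near 13.3%. CG3731 (UQCR-C1), a core subunit of complex III, stood at 3.48, 2.69 and 3.59 scaled FPKM in the 0.3 M libraries, against 1.15, 1.37 and 1.97 in the 0.15 M libraries. The diets did not overlap, and the change was 0.77 ± 0.14 (SE, adjusted p = 0.0151). CG4692 (ATPsynF), Pdsw (ND-PDSW, complex I) and Oscp (ATPsynO) rose by 0.702 ± 0.16, 0.57 ± 0.15 and 0.57 ± 0.15. After rescaling, 27 of the 30 changes stayed positive, the median was 0.28 and 1 gene was called. Without library 1 at 0.3 M 10 passed, and without library 3 at 0.3 M or library 1 at 0.15 M none did.

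The 84 tested genes of cytosolic ribosomal proteins also had positive changes throughout, beside 66.7% of all genes tested, with a median of 0.53. The 6 that passed were 7.14% of them, near the 6.34% of all genes tested that were higher. When the minimum mean was raised to 3, 83 of them were tested with a median of 0.53, beside 0.28 for all genes then tested. RpS15Aa, of the small subunit, stood at 82.7, 103 and 112 scaled FPKM in the 0.3 M libraries, against 63.6, 46.96 and 57.5 in the 0.15 M libraries. The change was 0.81 ± 0.21 (SE, adjusted p = 0.0415), and all 0.3 M values lay above all controls. RpL21, of the large subunit, had 123, 213 and 185 at 0.3 M, against 108, 85.1 and 96.9 at 0.15 M and a change of 0.81 ± 0.19 (SE, adjusted p = 0.0359). oho23B (RpS21) and RpS19a had changes of 0.72 ± 0.197 and 0.72 ± 0.18. With rescaling 80 of the 84 changes stayed positive, at a median of 0.31 and with 0 calls, and once each library was corrected for transcript length the median was 0.37 and 1 was called. Without library 1 at 0.3 M 56 of the 84 passed, and without any 1 of the other 5 libraries none did. Of 9 tested mitochondrial ribosomal protein genes 1 was higher (11.1%, beside 6.34% of all genes tested). It was mRpL22 (0.49 ± 0.13, adjusted p = 0.0463), and the list median was 0.19.

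Among 26 tested cytochrome P450 genes, 3 were higher (11.5%, beside 6.34% of all genes tested) and 1 was lower, with a median of 0.32. Cyp6d5 was the lower one, with 3.39, 7.24 and 4.997 scaled FPKM in the 0.3 M libraries, against 21.3, 17.8 and 13.8 in the 0.15 M libraries. Every control value was well above every 0.3 M value, and the change was -1.61 ± 0.25 (SE, adjusted p = 0.00764). This call was kept in each of the 6 leave-one-out fits and after rescaling, and lost on the 6 libraries alone. The higher P450 genes numbered 0 to 9 with 1 library left out (9 without library 1 at 0.3 M, 7 without library 2 at 0.15 M and 0 without any 1 of the other 4) and 1 after rescaling. Cyp4d1 moved the other way, with 32.4, 55.01 and 57.6 at 0.3 M, against 16.9, 18.96 and 15.02 at 0.15 M, no overlap and a change of 1.42 ± 0.29 (SE, adjusted p = 0.0258). Library 1 was the lowest of the 3 at 0.3 M. The neighbouring copies Cyp12d1-p and Cyp12d1-d, whose reads may be shared, rose by 0.63 ± 0.16 and 0.59 ± 0.16. Of 25 tested glutathione transferases and antioxidant enzymes 2 were higher (8%, near the 6.34% of all genes tested). They were CG16936 (GstE12; 0.69 ± 0.18, adjusted p = 0.0471) and GstE7 (0.501 ± 0.14, adjusted p = 0.0484). The list median was 0.24, and 0 were called after rescaling. In the ecdysone list 1 of 6 tested genes was lower, ImpE2, an ecdysone-inducible gene, at 4.59, 1.62 and 0.691 at 0.3 M, against 8.09, 4.599 and 8.0995 at 0.15 M. The values at 0.3 M were spread from near the control level in library 1 to the lowest in library 3, and the change was -1.41 ± 0.36 (SE, adjusted p = 0.0407).

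Outside the lists lay 101 of the higher and 22 of the lower genes. The largest rise among those at a mean of at least 5 was that of CG3348, which has no named role here and stood at 8.67, 7.41 and 16.7 scaled FPKM in the 0.3 M libraries, against 1.27, 1.87 and 1.91 in the 0.15 M libraries. The 3 control values were all far below the 0.3 M values, and the change was 2.08 ± 0.27 (SE, adjusted p = 0.00515). regucalcin, the fly relative of a mammalian calcium-binding liver protein, had 121, 205 and 213 at 0.3 M, against 51.1, 53.98 and 35.1 at 0.15 M, a change of 1.898 ± 0.27 (SE, adjusted p = 0.00562). CG31775 and CG42586 kept 1 fixed ratio over all 12 libraries of the 4 diets and are not separate observations. CG31775 had 647, 716 and 696 at 0.3 M, against 237, 210.3 and 163 at 0.15 M, with a change of 1.77 ± 0.24 (SE, adjusted p = 0.00535), and this pair kept its call in all 14 alternatives. CG34291 had 169, 207 and 181 at 0.3 M, against 31.7, 116 and 46.6 at 0.15 M, where library 2 of the control diet stood well above its neighbours, and a change of 1.71 ± 0.44 (SE, adjusted p = 0.0407).

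Other large rises outside the lists followed. Dbi (Acbp2), an acyl-CoA-binding protein, had 10.3, 8.83 and 9.73 scaled FPKM in the 0.3 M libraries, against 1.93, 4.82 and 2.33 in the 0.15 M libraries. Its control libraries were uneven but all below the 0.3 M values, and the change was 1.46 ± 0.32 (SE, adjusted p = 0.0324). The alcohol dehydrogenase Adh had 104, 68.5 and 91.7 at 0.3 M, against 25.3, 52.5 and 27.6 at 0.15 M and a change of 1.35 ± 0.31 (SE, adjusted p = 0.0353). CG9510 (Argl), an argininosuccinate lyase, had 9.49, 13.8 and 20.3 at 0.3 M, against 3.59, 4.397 and 6.85 at 0.15 M and a change of 1.36 ± 0.28 (SE, adjusted p = 0.0266). The esterase gene alpha-Est2 rose by 1.37 ± 0.31, and CG33307, CG30503 and CG5773 by 1.39 ± 0.23, 1.33 ± 0.21 and 1.26 ± 0.18.

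Of the 30 lower genes, 6 were the gut proteases described below, and CG30025 and CG30031, near copies of the trypsin gene gammaTry, and yip7 lay outside that list. Act42A, a cytoplasmic actin, stood at 1.598, 2.04 and 0.829 scaled FPKM in the 0.3 M libraries, against 7.02, 5.28 and 6.17 in the 0.15 M libraries. No library overlapped, and the change was -1.55 ± 0.17 (SE, adjusted p = 0.00288). CG31789 and CG8664, with no named role here, had 2.51, 1.21 and 0.772 at 0.3 M, against 4.35, 11.5 and 9.499 at 0.15 M and 1.19, 1.02 and 0.612 at 0.3 M, against 3.62, 5.596 and 7.97 at 0.15 M. Their changes were -1.89 ± 0.300 (SE, adjusted p = 0.00764) and -1.75 ± 0.21 (SE, adjusted p = 0.00297), and both were listed at 0 in all 6 libraries at 0.7 M and 1.0 M. CG31789 and CG8664 reached the level tested only through the 0.15 M libraries, so the filter set part of their fall in advance. yip7, a serine protease of the Jonah type, had 5.197, 1.27 and 1.64 at 0.3 M, against 7.25, 9.04 and 8.91 at 0.15 M and a change of -1.49 ± 0.31 (SE, adjusted p = 0.0266). In CG31789, CG8664 and yip7 library 1 was the highest at 0.3 M and the lowest at 0.15 M. The lower genes CG7953, CG14302, CG12115, PPP4R2r, CG30025 and CG30031 had the same order. So did the summed gut markers, at 62.8, 26.9 and 25.03 at 0.3 M, against 66.4, 174 and 154 at 0.15 M. The part of gut RNA in these falls was not tested. CG4484 (Slc45-1), of a family of sugar transporters, had 2.04, 3.04 and 2.46 at 0.3 M, against 5.69, 5.598 and 4.54 at 0.15 M and a change of -0.84 ± 0.13 (SE, adjusted p = 0.00764). dNAT1, a translation factor related to eIF4G, Akap200, an anchor for protein kinase A, and CG30152 (galla-1) changed by -0.91 ± 0.24, -0.85 ± 0.21 and -0.77 ± 0.18.

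Levels at 0.7 M and 1.0 M, in libraries of the same experiment, are given beside these values as a description, since they share the fit. CG3348 averaged 1.68 ± 0.362 at 0.15 M, 10.9 ± 5.02 at 0.3 M, 34.2 ± 4.33 at 0.7 M and 50.1 ± 12.03 at 1.0 M (SD, n = 3 per diet). CG5773 averaged 19.4 ± 2.46 at 0.15 M, 48.1 ± 7.94 at 0.3 M, 75.6 ± 9.25 at 0.7 M and 154 ± 23.7 at 1.0 M. In both the mean was higher at each further sucrose level. regucalcin averaged 46.7 ± 10.2 at 0.15 M, 179 ± 51.2 at 0.3 M, 73.4 ± 20.95 at 0.7 M and 57.2 ± 3.27 at 1.0 M, so its highest mean was at 0.3 M. Act57B, a muscle actin, averaged 1.63 ± 0.474 at 0.15 M, 6.06 ± 1.61 at 0.3 M, 3.06 ± 0.438 at 0.7 M and 1.83 ± 0.122 at 1.0 M. CG33307 averaged 8.95 ± 2.86 at 0.15 M, 24.8 ± 5.35 at 0.3 M, 16.3 ± 2.94 at 0.7 M and 11.8 ± 1.55 at 1.0 M. Both had their highest mean at 0.3 M as well. Act42A averaged 6.16 ± 0.867 at 0.15 M, 1.49 ± 0.614 at 0.3 M, 0.981 ± 0.109 at 0.7 M and 0.979 ± 0.167 at 1.0 M, and most of its difference lay between the lowest diets. Cyp6d5 averaged 17.6 ± 3.77 at 0.15 M, 5.21 ± 1.93 at 0.3 M, 6.004 ± 1.696 at 0.7 M and 3.55 ± 0.378 at 1.0 M, also with its widest step there.

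**Figure D3:**
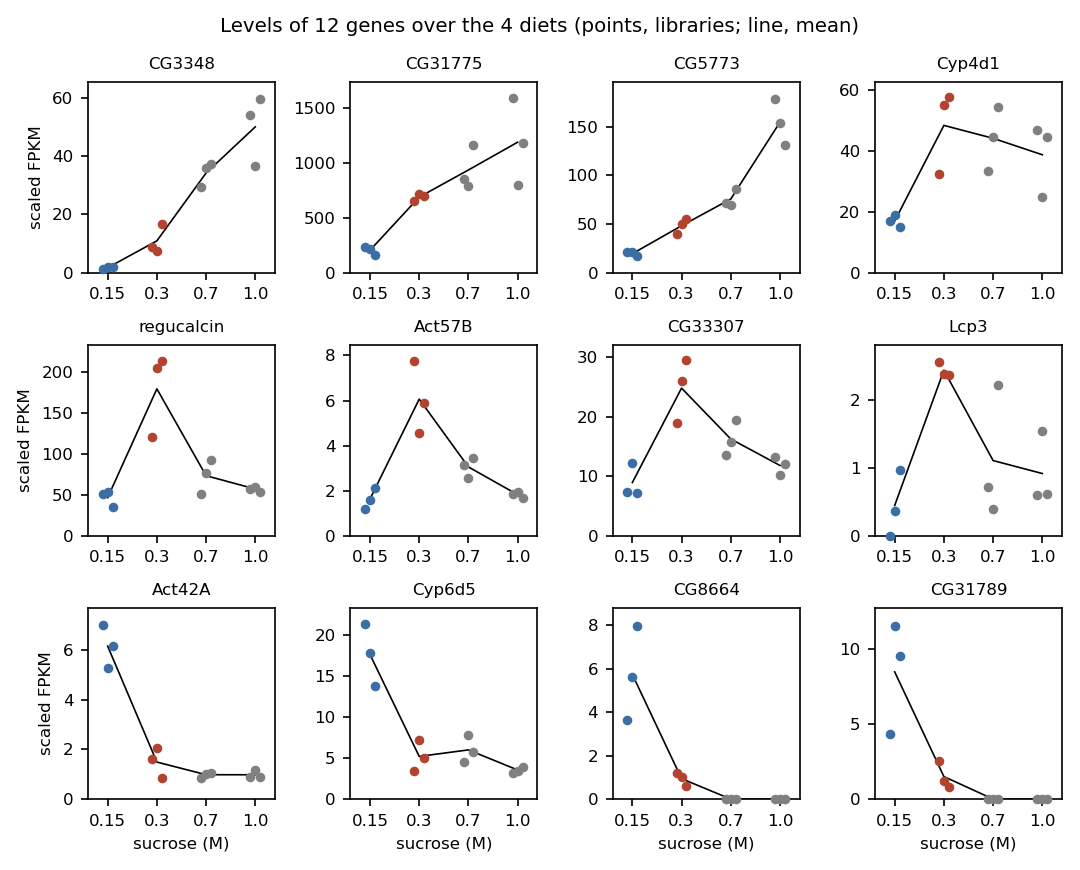
Scaled FPKM of 12 genes at 0.15, 0.3, 0.7 and 1.0 M sucrose; points are the 3 libraries per diet and the line joins the means. In the top and middle rows the mean was above the 0.15 M mean on all raised diets. It was highest at 0.3 M for the genes of the middle row and for Cyp4d1 of the top row. The bottom row holds genes that were lower.

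Markers of other tissues differed between the diets, and in bulk tissue fewer cells of a type and less RNA per cell cannot be told apart. Of the 12 gut markers tested, digestive proteases made by the midgut, 6 were lower, beside 1.38% of all genes tested. All 12 changes were negative, beside 33.2% of all genes tested, and the median was -1.29. The other 10 of the 22 genes of the list lay below the filter. Jon25Bii averaged 4.07 at 0.15 M, 0.460 at 0.3 M, 0 at 0.7 M and 0.0354 at 1.0 M. It thus reached the level tested only through the 0.15 M libraries, and so did Jon25Bi, gammaTry and deltaTry. For these genes the filter set part of the fall in advance. Jon25Bi stood at 4.32, 0.551 and 2.16 scaled FPKM in the 0.3 M libraries, against 7.84, 12.01 and 13.4 in the 0.15 M libraries. The diets did not overlap, with a change of -1.997 ± 0.35 (SE, adjusted p = 0.0147). Jon65Aiv had 26.8, 6.81 and 7.63 at 0.3 M, against 27.5, 74.7 and 45.3 at 0.15 M, where library 1 at 0.3 M nearly reached library 1 at 0.15 M; its change was -1.91 ± 0.45 (SE, adjusted p = 0.0356). Jon25Bii and Jon65Aiii changed by -1.78 ± 0.26 and -1.63 ± 0.403. The trypsins gammaTry and deltaTry, which are near-identical copies, had changes of -1.31 ± 0.31 and -1.27 ± 0.297. After rescaling 6 were called as well, and the count ranged from 1 to 8 with 1 library left out, with 1 call without library 3 of either diet and 2 without library 2 of either diet.

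In the summed gut list (22 genes, 20 of them above 0 in at least 1 of the 6 libraries), whose values stand above, library 1 of each diet lay close to the other, and the remaining libraries were far apart. The sum of the muscle markers went the other way, at 27.0, 18.9 and 25.9 at 0.3 M, against 9.45, 11.3 and 14.3 at 0.15 M, without overlap. Of the 17 muscle genes 11 lay below the filter. The 6 tested had 4 positive and 2 negative changes, beside 66.7% positive among all genes tested, and 3 lay wholly higher at 0.3 M. Of these 6 genes 1 was called higher (16.7%, beside 6.34% of all genes tested). It was Act57B, at 7.74, 4.54 and 5.91 at 0.3 M, against 1.18, 1.605 and 2.12 at 0.15 M. The change was 1.41 ± 0.18 (SE, adjusted p = 0.00438), and its call was kept in all 6 leave-one-out fits. Among 8 tested cuticle genes 3 were higher (37.5%, beside 6.34% of all genes tested). They were Lcp3 (1.304 ± 0.32, adjusted p = 0.0374) and the near-identical pair Lcp65Ab1 and Lcp65Ab2 (1 observation, 1.27 ± 0.32, adjusted p = 0.0379). None of the 3 was called after rescaling or with the length trend removed. With 1 library left out 0 or 1 was called, the 1 being Lcp3 without library 1 at 0.3 M. Lcp3 had 2.56, 2.39 and 2.38 at 0.3 M, against 0, 0.374 and 0.968 at 0.15 M. Of the 114 cuticle genes 100 were at 0 in all 6 libraries, and the list's sum, mostly Cpr49Ac, was 161 to 220 at 0.3 M and 206 to 251 at 0.15 M.

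Salivary glue genes were uneven within each diet, with sums of 114 to 270 at 0.3 M and 14.8 to 203 at 0.15 M, and none of 5 tested passed (median 1.14). Haemocyte markers were low, with sums of 3.03 to 6.26 at 0.3 M and 4.80 to 12.2 at 0.15 M, and 3 of 11 were at 0 throughout. Malpighian tubule markers summed to 1.67 to 6.73 at 0.3 M and 3.27 to 5.85 at 0.15 M, and gonad and oenocyte markers were at or near 0. Neuron markers, almost all of it Syt1, summed to 16.2 to 19.6 at 0.3 M and 15.7 to 16.2 at 0.15 M. Dcr-2, which reads both the transgene and the native gene, stood at 15.96, 7.83 and 12.1 scaled FPKM in the 0.3 M libraries, against 30.2, 50.2 and 18.04 in the 0.15 M libraries. It lay wholly lower at 0.3 M, and its change did not pass the test (-1.32 ± 0.42, adjusted p = 0.0758). The part of these tissue and transgene levels in the gene lists above was not tested.

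**Figure D4:**
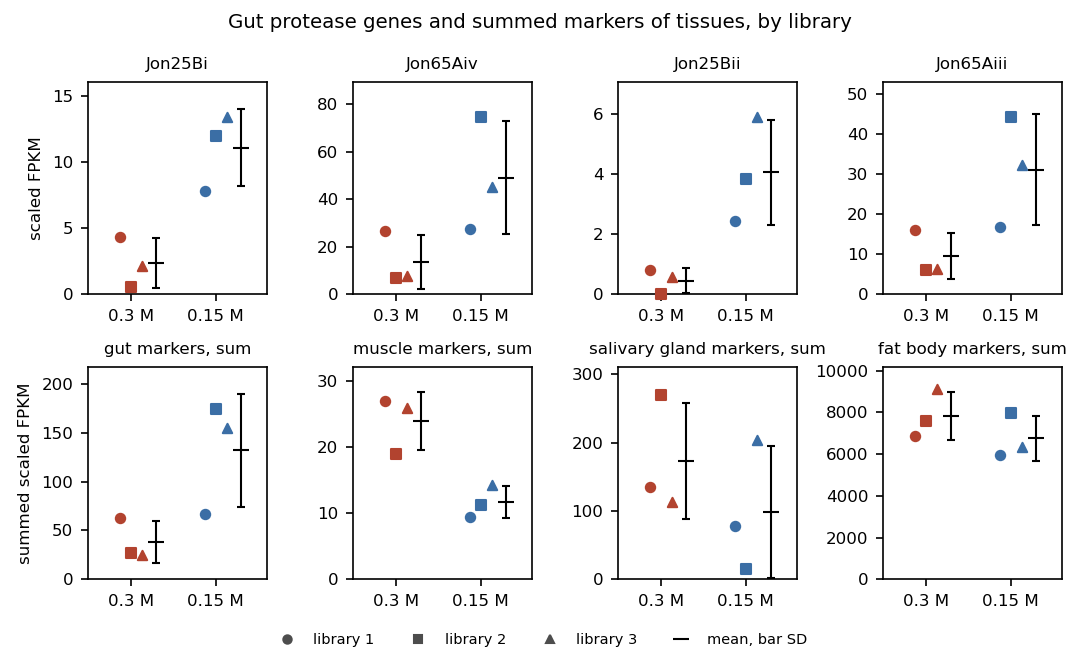
Top, scaled FPKM of the 4 gut protease genes with the largest falls; bottom, summed scaled FPKM of gut, muscle, salivary gland and fat body marker lists, in each library at 0.3 M (red) and 0.15 M (blue), with mean and SD of 3 libraries in black. Gut sums lie lower and muscle sums higher at 0.3 M, while salivary and fat body sums overlap.

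Several stress and maintenance lists held no called gene. All 9 tested genes of the cytosolic heat shock list had negative changes, beside 33.2% of all genes tested, with a median of -0.37, led by the chaperones Hsp83 (-0.58 ± 0.26, adjusted p = 0.18) and Hsp23 (-0.57 ± 0.34, adjusted p = 0.29). Library 3 at 0.3 M was the lowest of the 6 for both, at 9.13, 8.299 and 5.52 at 0.3 M, against 16.7, 7.49 and 12.6 at 0.15 M for Hsp83. CG14207, a small heat shock gene that the list leaves out, was called higher (0.64 ± 0.17, adjusted p = 0.0471). Antimicrobial peptides had a median of -0.45 over 7 tested genes, and their libraries overlapped in every case, for example Dro at 0, 2.04 and 0 at 0.3 M, against 0.884, 1.92 and 1.66 at 0.15 M. Toll-induced peptides (6 tested, median 0.004), peptidoglycan recognition and immune signalling (10 tested, median 0.15) and Turandot and JAK/STAT genes (3 tested, median 0.71) gave no call. CG16712 (IM33), which these lists leave out, was called higher (1.16 ± 0.29, adjusted p = 0.0374). The stress peptide TotA had 92.2, 71.2 and 109 at 0.3 M, against 52.5, 44.8 and 31.9 at 0.15 M without overlap and a change of 1.07 ± 0.49 (SE, adjusted p = 0.18). Endoplasmic reticulum chaperones had a median of 0.17 over 12 tested genes, with Hsc70-3 (BiP) at -0.500 ± 0.22, adjusted p = 0.16 and the isomerase Pdi at 0.48 ± 0.15, adjusted p = 0.0758.

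Proteasome genes had a median of 0.07 over 33 tested, vacuolar ATPase genes -0.04 over 14, translation factors and tRNA synthetases 0.17 over 40, translocation and coat genes 0.28 over 19, autophagy and lysosome genes -0.17 over 7 and amino acid and one-carbon enzymes 0.11 over 17, with no call in any of these lists. They are not complete. The amino acid list leaves out CG34424 (Mthfs; 1.08 ± 0.20, adjusted p = 0.0185), CG4802 (Mtap; 0.95 ± 0.15, adjusted p = 0.00764) and Spat (Agxt; 0.89 ± 0.21, adjusted p = 0.0362), all called higher. The translocation list leaves out Tapdelta (0.72 ± 0.15, adjusted p = 0.0258), also called higher. After rescaling, the medians of the proteasome, translation, endoplasmic reticulum, immune signalling, Toll-induced, amino acid and lipoprotein lists turned negative, at -0.12, -0.004, -0.02, -0.05, -0.14, -0.11 and -0.14, and so did Syt1, the neuron gene tested (0.199 before, -0.01 after). With the length trend removed the medians of the Toll-induced and mitochondrial ribosomal lists were -0.14 and -0.0005, and that of the vacuolar ATPase list was 0.03. The glycine N-methyltransferase CG6188 (Gnmt) came nearest to the threshold, at 21.4, 31.99 and 42.8 at 0.3 M, against 9.84, 21.1 and 10.2 at 0.15 M and a change of 1.197 ± 0.33 (SE, adjusted p = 0.052). Lipoproteins (3 tested, median 0.02) and metal handling (3 tested, median 0.38) gave no call, the maltase CG30359 of the dietary glycosidases did not change beyond its error (-0.001 ± 0.14, adjusted p = 1), and no DNA replication gene of 17 reached the level tested.

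The called genes were also looked up in female experiments that share no library with this one, though these compared 0.7 M with 0.15 M. In females with the cg-GAL4 driver and the w1118 stock, 96 of the 138 higher genes were called higher (69.6% of this list and 16.4% of that one). Of the 126 that were tested there this was 76.2%, where 27.5% of all genes tested there were higher. Of the 30 lower genes 14 were lower there (46.7% and 5.34%), which was 56% of the 25 tested there, beside 12.3% of all genes tested. The 14 included deltaTry, Jon65Aiii and Jon65Aiv of the gut list, and yip7, CG31789 and CG8664, which had the library order of the summed gut markers. In r4-GAL4 females with the 60100 stock, 43 of the 138 were higher (31.2% and 9.13%), or 31.9% of the 135 tested there, beside 18.7% of all genes. That contrast was between the controls. Its filter and its estimate of the spread also used the FOXO, p53 and Stat92E RNAi females of the same experiment. Of the 30 lower genes 10 were lower there (33.3% and 3.19%), or 34.5% of the 29 tested, beside 12.4%. None of the gut-type genes just named for the cg females was among these 10. The part of gut RNA in this overlap was not tested. In neither experiment was a gene called in the opposite direction. The overlap was not tested, and driver or stock, diet and experiment differ together between these sets.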

How the data were processed

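Total RNA was sequenced in 62 samples, of which 6 are compared here. The deposited table holds FPKM values for 14659 genes in 61 columns. Per the submitters' processing notes, TopHat 1.3.2, Bowtie 0.12.7 and Cufflinks 1.1.0 were used with the dm3 genome. The authors' FPKM were found to be scaled so that 2117 genes reach 1 in every r4 w1118 female library, a step the labels do not state, so they are relative within an experiment and no counts were used. Columns were matched to samples by title, and 12 columns (males) were not used. The 0.3 M diet is named in the samples' treatment label.

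The diets were compared by limma 3.58.1 under R 4.3.3 (empirical Bayes with a mean-variance trend, two-sided) on log2(scaled FPKM + 1), with a mean for each of 4 diets over the 12 r4 w1118 female libraries, for genes with a mean of at least 1, with Benjamini-Hochberg adjustment over 2177 genes and a threshold of 0.05. Fold changes on this scale understate those of low genes. The script was tested on simulated data. Members of 43 gene lists were counted; the samples, lists and rules were chosen with earlier results of these data known, and the lists are described by counts and medians. Named are up to 4 called members per list by size of change, or 2 where none was called, and outside the lists up to 12 rises and 12 falls with a mean of at least 5 and no overlap; other genes were named after their values were seen. The cuticle list's name pattern was narrowed once the gene symbols had been seen, so that it leaves out Cpr, the cytochrome P450 reductase gene. Current symbols came from RefSeq annotation and transcript lengths from BDGP6. Same-numbered libraries of the 2 diets were treated as unpaired. The 14 alternatives are given in the closing section.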

Additional observations from a re-analysis of the deposited data

How the results depend on the processing

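Of the 168 calls, 167 kept their direction in every alternative in which the gene was tested, and 2 (CG31775 and CG42586, which share their values) kept their call in all 14. For genes without overlap between the diets, most alternatives could not change the direction, such as a library left out or another pseudocount or filter. The counts moved more. With no filter on low values 495 genes were called, 341 of them lower; after median-ratio rescaling 71 were called, 35 of them higher; on the 6 libraries alone 6 were called, 5 higher and 1 lower. The lower genes numbered 18 with a pseudocount of 0.1 and 16 with a filter at a mean of 3. With 1 library left out, the calls ranged from 25 to 422, the higher genes from 16 to 357 and the lower genes from 7 to 65. The genes also called in cg females numbered 110, and 185 with no filter, 43 after rescaling, 2 on the 6 libraries alone and 18 to 242 with 1 library left out. The genes also called in r4 60100 females numbered 53, and 240, 34, 3 and 12 to 134 in the same order. Fewer libraries or other genes tested go with several of these settings; otherwise the cause was not tested.

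With the replicate number as a block 149 genes were called, 130 higher and 19 lower, and 133 of the 168 calls were kept. Same-numbered libraries of the diets did not deviate together (r of -0.02, -0.20 and -0.06 across genes, beside -0.08 to 0.17 for different numbers). With 3 libraries per diet this cannot exclude pairing, which the labels do not state.

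Depth limits values near 1, which rest on a few fragments, and 3 libraries against 3 limit all tests; limma gave 619 genes at an unadjusted p under 0.05.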

Other observations

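Called genes outside the lists could be grouped by what they are known to do; these groups were chosen after their values were seen and carry no test as groups. Small respiratory chain subunits not in the list included CG2249 (COX7C) at 12.1, 12.7 and 11.8 at 0.3 M, against 6.88, 7.196 and 8.21 at 0.15 M (0.65 ± 0.14, adjusted p = 0.0328), CG7630 (COX7B; 0.62 ± 0.12, adjusted p = 0.0186) and CG14482 (UQCR-6.4; 0.68 ± 0.15, adjusted p = 0.0332). Enzymes for aldehydes and epoxides included Aldh at 6.48, 7.48 and 10.7 at 0.3 M, against 2.495, 4.26 and 3.53 at 0.15 M (1.053 ± 0.23, adjusted p = 0.0324), Fdh (0.498 ± 0.13, adjusted p = 0.0407) and the juvenile hormone epoxide hydrolase Jheh3 at 7.34, 9.09 and 11.1 at 0.3 M, against 3.63, 4.73 and 3.59 at 0.15 M (1.02 ± 0.17, adjusted p = 0.00891). Secreted proteins included nimB2 at 12.9, 14.8 and 24.1 at 0.3 M, against 4.91, 7.94 and 6.59 at 0.15 M (1.26 ± 0.24, adjusted p = 0.0203), Chit (Idgf6; 0.98 ± 0.23, adjusted p = 0.0353), the cystatin-like Cys (1.096 ± 0.295, adjusted p = 0.0471) and fat-spondin (0.803 ± 0.17, adjusted p = 0.0317). The fatty acid-binding protein CG6783 (fabp) had 106, 175 and 158 at 0.3 M, against 69.5, 69.4 and 64.8 at 0.15 M (1.07 ± 0.23, adjusted p = 0.0317).

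Some transcripts passed between a level near 0 and a clear level. CG14057 (Pop5) was listed at 0 in all 3 libraries at 0.3 M, against 3.35, 3.23 and 3.55 scaled FPKM at 0.15 M. Ufd1-like had 2.06, 1.42 and 1.76 at 0.3 M, against 0.00462, 0.0139 and 0.00227 at 0.15 M. CoVa (COX5A) had 2.37, 10.3 and 11.99 at 0.3 M, against 0.0603, 0.1101 and 0.174 at 0.15 M and did not pass the test. These 3 genes were chosen after their values were seen, and a value at or near 0 in these files can be a failed estimate for 1 gene model.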
